A study of Mus musculus with 4 samples.

Results

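Oligodendrocyte precursor nuclei from the paraventricular hypothalamic nucleus (PVN) of the mouse were picked from single-nucleus RNA sequencing libraries by 5 genes, Pdgfra, Vcan, Tnr, Lhfpl3 and Megf11. Nuclei were kept from 500 detected genes upward and up to 5% mitochondrial UMIs (unique molecular identifiers, counts of RNA molecules), and one was taken when it held at least 1 UMI of Pdgfra, at least 1 of Vcan and at least 10 of all 5 genes together. Its UMIs of the neuronal genes Meg3, Snhg11 and Syt1 had to be under 1% of its total, and those of the oligodendrocyte genes St18, Prr5l, Mag and Mog under 0.5%. The rule found 619 of 30939 kept nuclei. They were 168 and 151 nuclei in the 2 libraries of ZT20 and 150 and 150 in the 2 libraries of ZT8, where ZT is the zeitgeber time in hours, counted by convention from lights on. Each library pooled 5 micropunched PVNs of male C57Bl6 mice, labelled 10 weeks old and described as 10 to 12 weeks in the design. Nuclei were isolated on a sucrose gradient and read with the 10x 3′ v3 droplet assay. Both times share strain, sex, age and handling as far as the labels say, and no genotype or drug is named. No label states that libraries of the same time were made from different mice, so p-values measure the spread between these libraries.

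Oligodendrocyte precursors are the proliferating glia of the adult brain and the source of its new oligodendrocytes. They carry the receptor PDGFRα, whose ligand PDGF drives their division, and the chondroitin sulphate proteoglycan NG2, receive synapses from neurons, and on differentiation pass through a committed stage marked by Gpr17, Bmp4 and Enpp6 before myelin genes are turned on. The circadian clock is a feedback loop in which BMAL1 and CLOCK drive the genes of their own repressors, the period, cryptochrome and REV-ERB proteins.

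The deposited libraries held 57970649 to 69223344 UMIs. The member nuclei held 1142818 and 985353 UMIs at ZT20 and 1039663 and 1071210 at ZT8, with median UMIs per nucleus of 5655 and 5573 at ZT20 and 5537.5 and 6189.5 at ZT8. All kept nuclei had medians of 3743 and 2526 UMIs at ZT20, lower than the 4793 and 5596 at ZT8. Between 10 and 25 barcodes were shared by any 2 libraries, and no member barcode was. Few nuclei lay near the threshold of 10 marker UMIs: 3 members had 10 to 14, and 12 nuclei that otherwise met the rule had 5 to 9. The median member had 53 to 62. The neuronal limit removed 90 and 86 nuclei at ZT20 and 59 and 80 at ZT8.

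The label held against genes that the rule did not use. Of 12 further precursor genes (Cspg4, Olig1, Olig2, Sox10, Ptprz1, Sox6, Luzp2, C1ql1, Matn4, Cacng4, Xylt1 and Dscam), all were higher in the member nuclei than in all other kept nuclei, with ratios of 2.96 for Dscam to 22.4 for Cspg4 (CPM, a gene's UMIs scaled to the same total in every library, plus 10, mean of 4 libraries). These are descriptions, since the nuclei were chosen from the same data. Cspg4, which encodes NG2, had 315 to 418 CPM in members, against 8.84 to 14.8 in mature oligodendrocyte nuclei and 4.33 to 9.61 in astrocyte nuclei. Not all 12 separate the glia: Sox10, a transcription factor of the whole oligodendrocyte lineage, had 232 to 273 in members and 236 to 266 in mature oligodendrocyte nuclei, and Luzp2 had 1476 to 1784 in members and 1497 to 1844 in astrocyte nuclei. With the genes of the selection rule left out, the 15 genes with the highest ratio were led by Cspg4, the integrin subunit gene Itga9 (ratio 21.2) and the sialidase gene Neu4 (19.0). They also held Arhgap31, Emid1, Xylt1, Gpr17, Matn4, Sox6, Sema3d, Vxn, Shc4, Rgcc, Afap1l2 and Calcrl, the last 3 at ratios of 11.7 to 12.2.

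**Figure D1:**
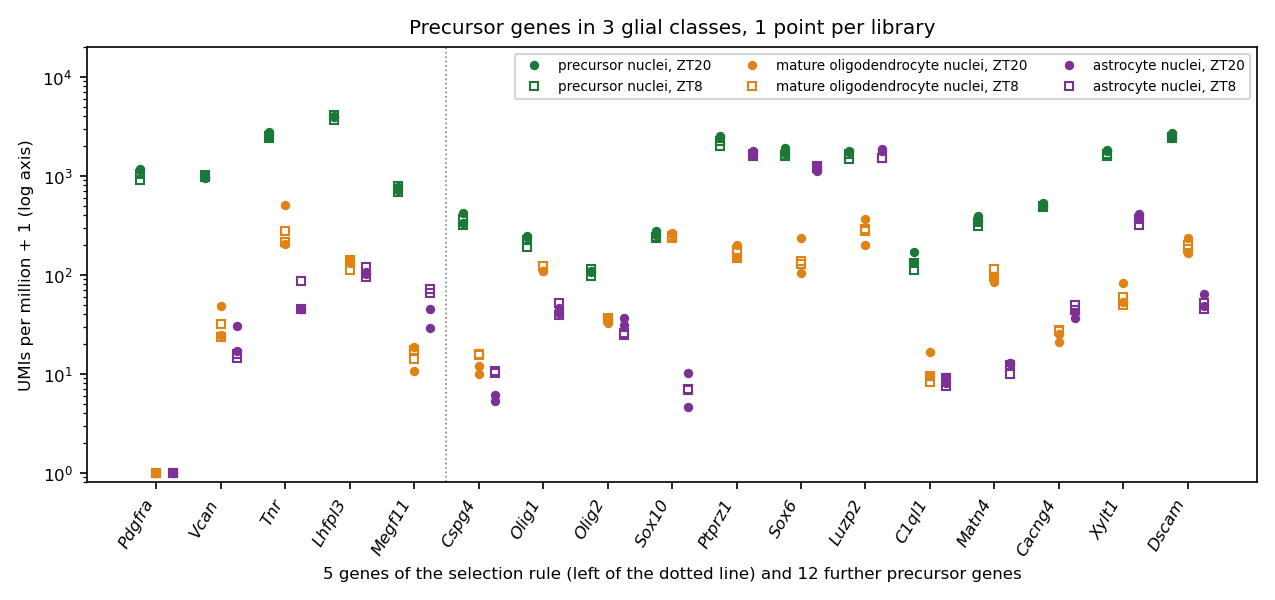
CPM plus 1 (log axis) of the 5 genes of the selection rule and of 12 further precursor genes in precursor, mature oligodendrocyte and astrocyte nuclei; each point is 1 library, filled at ZT20 and open at ZT8. Cspg4 lies at 315 to 418 in precursor nuclei and under 15 in the other classes, while Sox10 is as high in mature oligodendrocyte nuclei and Luzp2 in astrocyte nuclei; Pdgfra is 0 in both other classes by their definition.

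Members differed among themselves in UMIs of genes of division and commitment. With 3 or more UMIs of 14 mitotic and S-phase genes (Mki67, Top2a and others), 18 of 619 nuclei counted as cycling: 7 and 2 at ZT20 and 3 and 6 at ZT8. These were 4.17% (exact binomial 95% interval 1.69 to 8.40%) and 1.32% (0.161 to 4.70%) of members at ZT20, and 2.0% (0.414 to 5.73%) and 4.0% (1.48 to 8.5%) at ZT8, so the times overlap. Intervals here cover counting error only. Another 16 and 28 nuclei at ZT20 and 22 and 19 at ZT8 held 1 or 2 UMIs of these genes. The cut was on UMIs not scaled for depth. Median depths of the cycling nuclei were 9551 and 3970 UMIs at ZT20 and 31744 and 6569 at ZT8. All members had medians of 5655 and 5573 at ZT20 and 5537.5 and 6189.5 at ZT8. The cycling nuclei held less of the differentiation genes Gpr17 (136 CPM, against 312 in the other members) and Neu4 (83.6, against 274), and more of the chromatin enzyme gene Ezh2 (240, against 65.0). By 3 or more UMIs of Bmp4 and Enpp6, 8 nuclei counted as committed: 1 and 3 at ZT20, and 3 and 1 at ZT8. They held 49 UMIs of Enpp6 and 10 of Bmp4. Enpp6 had 106 to 148 CPM in mature oligodendrocyte nuclei, against 9.34 to 43.3 in all members. Median depths of the 8 nuclei were 13820 and 9274 UMIs at ZT20 and 14211 and 12377 at ZT8, above those of all members. In these 8 nuclei Pdgfra was at 386 CPM, against 1083 in the other members. The differentiation genes Bcas1 (1625, against 456), Tns3 (722, against 260) and Fyn (804, against 265) and the myelin gene Mbp (1116, against 280.05) were higher there. Gpr17 stood at 312, against 304 in the other members, and Neu4 was lower at 148, against 269. Both classes were set after the data had been seen and rest on few nuclei, so no test was made. The part of depth and of doublets in them was not tested.

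The share of precursors among kept nuclei was lower in both ZT20 libraries, but its direction depended on which nuclei were counted. It was 2.02% (exact binomial 95% interval 1.73 to 2.35%) and 1.61% (1.37 to 1.89%) at ZT20, and 2.35% (1.99 to 2.75%) and 2.18% (1.84 to 2.55%) at ZT8. The mean was 1.82 ± 0.292% at ZT20 and 2.26 ± 0.124% at ZT8 (SD, n = 2 each), a difference of -0.45 points (two-sided exact permutation p = 0.333, the smallest that 2 against 2 libraries allow). Among nuclei with at least 2000 UMIs the share was 3.33 and 3.03% at ZT20 and 3.26 and 2.99% at ZT8, so the times overlap. The means there were 3.18% at ZT20 and 3.13% at ZT8. The direction turned when the share was taken of glial nuclei alone (14% at ZT20 and 10.2% at ZT8). The ZT20 libraries held fewer nuclei of mature oligodendrocytes, 565 and 517, against 885 and 957 at ZT8.

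UMIs were summed over the member nuclei of each library, and ZT20 was compared with ZT8 with edgeR's quasi-likelihood test, adjusted over the 11060 genes tested. The threshold for a call was an adjusted p of 0.05. At ZT20 125 genes (1.13%) were called higher and 117 (1.06%) lower, 242 or 2.19% in either direction and 69 of them by more than 2-fold, and the median log2 change of all genes was 0.00. Without the second ZT20 library the counts were 62 higher and 59 lower. DESeq2 called 10 higher and 11 lower, and 15 of 58 called genes that the naming rule chose. Levels below are CPM after TMM scaling unless sums or totals are named, and log2 changes are ZT20 over ZT8 with their standard errors. Counts of called genes on a list are to be read beside the 1.13% and 1.06% of all genes.

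Arhgef3 rose at ZT20 in nuclei across both libraries; it encodes an exchange factor for the small GTPase RhoA (mm10 chr14:27114899-27403911, plus strand). It had 222 and 242 CPM at ZT20, against 82.6 and 61.8 at ZT8. Both ZT20 libraries lay far above both ZT8 libraries, with a log2 change of 1.68 ± 0.14 (edgeR adjusted p = 6.4e-13). The UMIs were spread over many nuclei: 112 of 168 and 106 of 151 nuclei held one at ZT20, and 57 and 52 of 150 each at ZT8. After every nucleus was thinned to 2000 UMIs, 35.1 and 36.0% of nuclei held one at ZT20, and 16.1 and 12.0% at ZT8. In mature oligodendrocyte nuclei the log2 change of Arhgef3 was 0.02 (edgeR adjusted p = 0.98) and in astrocyte nuclei 0.03 (0.98). The difference in change was 1.68 ± 0.22 from oligodendrocytes (edgeR adjusted p = 0.0045) and 1.69 ± 0.33 from astrocytes (0.0010). Its call in precursors held in all 18 alternatives tried.

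Among genes of the lineage, Gpr17 and Gjc3 rose together with few others. Gpr17, a receptor that holds committed precursors back from myelination, had 380 and 400 CPM at ZT20, against 216 and 222 at ZT8. Its log2 change was 0.83 ± 0.11 (edgeR adjusted p = 2.9e-07), and it was found in 136 and 131 nuclei at ZT20 and in 91 and 102 at ZT8. The groups do not overlap, and the change spread over many nuclei. Gjc3, which encodes the gap junction protein connexin 29 (chr5:137953461-137963098, minus strand), had 584 and 623 at ZT20, against 384 and 360 at ZT8, a log2 change of 0.70 ± 0.09 (edgeR adjusted p = 1.3e-06). Gjc3 also rose in mature oligodendrocyte nuclei (log2 0.55, edgeR adjusted p = 2.4e-07). For Gpr17 the difference in change from mature oligodendrocytes was -0.34 ± 0.24 (edgeR adjusted p = 0.88). Of 19 tested genes of commitment and differentiation, 2 rose, Gpr17 and the deacetylase gene Sirt2 (log2 0.48 ± 0.14, edgeR adjusted p = 0.048), and the list's median was -0.08. Sirt2 lost its call without either ZT20 library or without the second ZT8 library. Bcas1 (log2 0.15), Tns3 (0.12), Itpr2 (-0.08), Neu4 (0.11) and Enpp6 (-0.95) did not pass.

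Of 25 tested genes of precursor identity, 2 rose, Fabp7 and Epn2, with a list median of 0.19. Both ZT20 libraries were above both ZT8 libraries for 16 of the 25, against 21.3% of all genes tested. Fabp7, a brain fatty acid-binding protein gene (chr10:57784881-57788450, plus strand), had 65.2 and 63.0 CPM at ZT20, against 22.8 and 20.3 at ZT8 (log2 1.57 ± 0.24, edgeR adjusted p = 2.4e-05). It rose in astrocyte nuclei as well (log2 1.28, edgeR adjusted p = 0.00019). Epn2, which encodes an endocytic adaptor, had 1446 and 1568 at ZT20, against 1165 and 1225 at ZT8 (log2 0.33 ± 0.08, edgeR adjusted p = 0.0098), and lost its call without the second ZT20 or the first ZT8 library. The phosphatase gene Ptprz1 stood at 2406 and 2571 at ZT20 and 1984 and 2207 at ZT8 and did not pass (edgeR adjusted p = 0.068). Sox10 (log2 0.19), Olig1 (0.28), Olig2 (0.07) and Cspg4 (0.17) did not pass either.

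**Figure D2:**
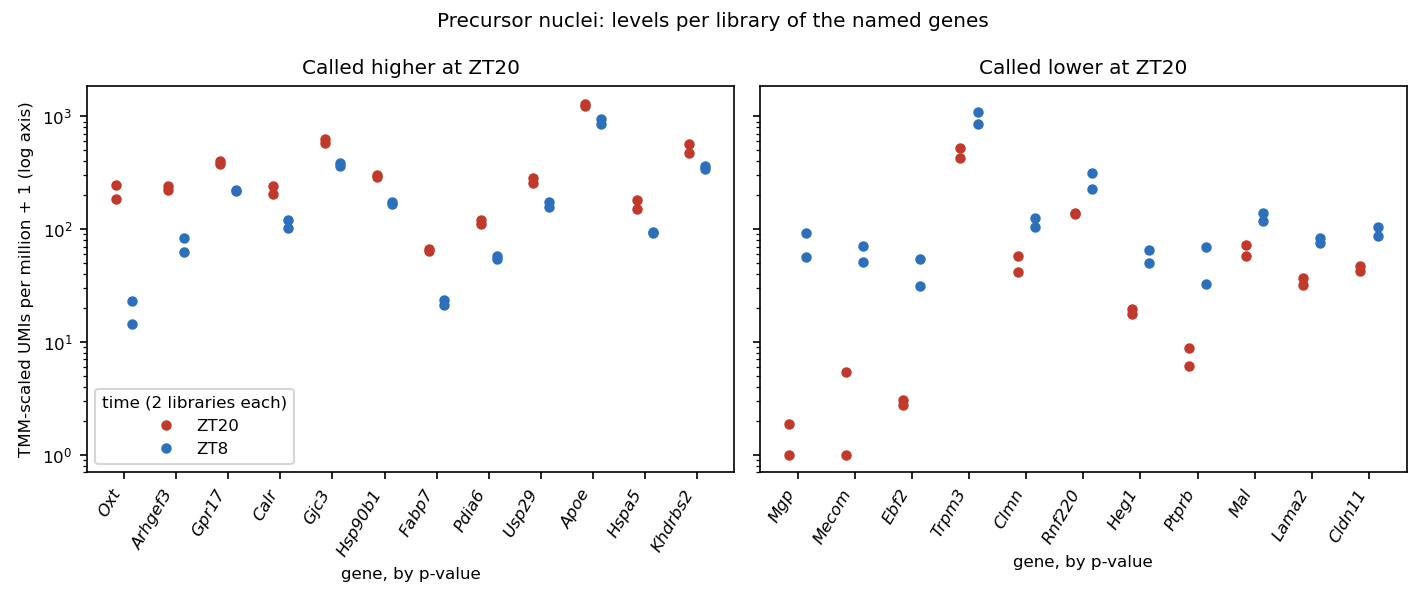
TMM-scaled CPM plus 1 (log axis) in precursor nuclei for 12 genes called higher and 11 called lower, in order of p-value; each point is 1 of 2 libraries per time, ZT20 left of ZT8. For every gene shown the 2 times do not overlap, which was a condition of naming; Arhgef3 is at 222 and 242 at ZT20 and at 82.6 and 61.8 at ZT8.

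No receptor or signalling gene on the lists for growth factors and their kinases passed. None of 19 growth factor receptor genes passed, with a median log2 change of -0.05, nor did any of 36 genes of PDGF and MAP kinase signalling (median -0.07). Erbb4, a neuregulin receptor gene, had 2725 and 2616 CPM at ZT20 and 2564 and 2549 at ZT8, and Fgfr2 had 369 and 339 at ZT20 and 352 and 318 at ZT8. Of 30 listed cell cycle genes only 10 had enough UMIs to be tested, and none of these passed (median -0.12). Of 29 genes of the Notch, Wnt, BMP and LINGO brakes on differentiation, 2 rose: Gpr17, and the adhesion receptor gene Adgrg1 (log2 0.78 ± 0.20, edgeR adjusted p = 0.022), which lost its call when any 1 library was left out. At the synapse-facing surface, those of 28 glutamate receptor genes that fell included Grm3, and 1 of 20 GABA receptor genes rose, Gabrg3 (log2 0.39 ± 0.10, edgeR adjusted p = 0.014). Gabrg3 lost its call without any 1 library except the first ZT8 one. The AMPA receptor subunit gene Gria2 had 1229 and 1372 at ZT20 and 1200 and 1289 at ZT8 and did not pass. None of 37 channel genes passed (median 0.03).

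Of 21 tested chaperone genes of the endoplasmic reticulum, whose products fold secreted and membrane proteins, 5 rose at ZT20, against 1.13% of all genes. The other 16 did not pass, none was lower, and the median log2 change was 0.32. Calr, encoding calreticulin, had 203 and 241 CPM at ZT20, against 102 and 120 at ZT8 (log2 0.99 ± 0.13, edgeR adjusted p = 8.2e-07). Hsp90b1, encoding GRP94, had 291 and 300 at ZT20, against 166 and 174 at ZT8 (log2 0.80 ± 0.11, edgeR adjusted p = 3.2e-06). Hspa5, encoding BiP, the chaperone that senses unfolded proteins, had 151 and 182 at ZT20, against 93.0 and 92.3 at ZT8 (log2 0.84 ± 0.14, edgeR adjusted p = 0.00012). The disulphide isomerase genes Pdia6 (log2 1.07 ± 0.17) and Pdia3 (0.69 ± 0.15) completed the 5, and in each the ZT20 libraries lay above the ZT8 libraries. Calr, Hsp90b1, Hspa5 and Pdia6 were called higher in both other glial classes too, with log2 changes of 0.41, 0.44, 0.77 and 0.88 in mature oligodendrocyte nuclei and 0.49, 0.49, 1.00 and 0.63 in astrocyte nuclei, and no difference between classes passed. Hspa5 and Pdia6 lost their calls after thinning to 2000 UMIs.

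The promoters of these 5 genes are shown because 4 of them hold the endoplasmic reticulum stress element, a site bound by NF-Y and ATF6 in the unfolded protein response. The element was searched as CCAAT, 9 bases of any kind and CCACG, on both strands and in the 250 bases before each listed start. They were found in 37 of 32851 promoters (0.113%), and in Hspa5, Calr, Hsp90b1 and Pdia6 but not Pdia3. The Hsp90b1 window holds the element at 2 places, starting 212 and 107 bases before the start; in Hspa5 it begins 65, in Calr 162 and in Pdia6 98 bases before it. A match describes the letters only. The element was chosen for this group of genes, so the 0.113% is a description and no test of enrichment. The sequences, from RefSeq on GRCm38.p6, run 5′ to 3′ on the gene's strand with the element in capitals, for Hspa5 (chr2:34771840-34772089, plus), Calr (chr8:84846932-84847181, minus), Hsp90b1 (chr10:86705445-86705694, minus) and Pdia6 (chr12:17266339-17266588, plus).
Hspa5: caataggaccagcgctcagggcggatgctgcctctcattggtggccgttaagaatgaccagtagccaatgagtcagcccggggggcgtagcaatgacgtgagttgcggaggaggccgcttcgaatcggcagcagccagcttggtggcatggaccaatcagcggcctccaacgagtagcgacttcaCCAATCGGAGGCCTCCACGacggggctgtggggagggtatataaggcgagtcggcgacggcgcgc
Calr: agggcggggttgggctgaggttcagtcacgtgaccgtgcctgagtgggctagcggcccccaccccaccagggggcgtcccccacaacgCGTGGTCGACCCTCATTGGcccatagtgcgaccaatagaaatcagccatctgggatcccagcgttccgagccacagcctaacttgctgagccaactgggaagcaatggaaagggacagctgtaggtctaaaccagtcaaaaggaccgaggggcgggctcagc
Hsp90b1: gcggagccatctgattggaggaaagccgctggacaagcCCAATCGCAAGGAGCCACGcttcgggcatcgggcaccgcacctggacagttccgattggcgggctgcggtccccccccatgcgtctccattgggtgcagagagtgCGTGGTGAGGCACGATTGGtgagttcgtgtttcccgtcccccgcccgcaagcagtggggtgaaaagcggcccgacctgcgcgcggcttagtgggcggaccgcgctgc
Pdia6: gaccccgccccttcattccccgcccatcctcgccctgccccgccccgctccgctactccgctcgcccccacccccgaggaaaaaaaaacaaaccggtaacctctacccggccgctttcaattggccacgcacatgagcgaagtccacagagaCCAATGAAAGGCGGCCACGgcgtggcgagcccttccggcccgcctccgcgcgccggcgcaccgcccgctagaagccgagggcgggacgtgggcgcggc

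Members of 3 further housekeeping groups rose, where 1.13% of all genes were called higher. Of 17 heat shock genes 3 rose (Hsp90aa1, Hsp90ab1 and Hspa8, log2 0.42, 0.41 and 0.38), and all 3 lost their calls without the nuclei that held vascular markers, described below. Of 12 mitochondrially encoded genes 8 rose, with a list median of 0.63; mt-Co3 had 365 and 360 CPM at ZT20, against 213 and 218 at ZT8 (log2 0.75 ± 0.11, edgeR adjusted p = 3.2e-06). Of 24 ribosomal protein genes 1 rose, Rpl37 (log2 0.59 ± 0.13, edgeR adjusted p = 0.0049), with both ZT20 libraries above both ZT8 libraries for 16 of the 24, against 21.3% of all genes. The medians of the mitochondrial and ribosomal lists were 0.79 and 0.59 in all other kept nuclei. The heat shock list had a median of 0.38 in members and 0.40 in all other kept nuclei. Its median was 0.38 in mature oligodendrocyte and 0.27 in astrocyte nuclei. Mitochondrial UMIs were 0.197 and 0.187% of member UMIs at ZT20 and 0.120 and 0.135% at ZT8, and their part in these results was not tested. Also among the genes named by p-value, Apoe, a lipid carrier, rose (1235 and 1298 at ZT20, against 953 and 847 at ZT8, log2 0.49 ± 0.08), as did Usp29, a ubiquitin protease gene (log2 0.71 ± 0.12), and Khdrbs2, a splicing regulator gene (0.56 ± 0.10). Usp29 was called higher in mature oligodendrocyte (log2 0.50, edgeR adjusted p = 0.010) and astrocyte nuclei (0.61, 0.0054) too. Apoe was called higher in astrocyte nuclei (log2 0.39, edgeR adjusted p = 6.6e-05) and not in mature oligodendrocyte nuclei (0.16, 0.18). Khdrbs2 showed log2 changes of -0.08 in mature oligodendrocyte and 0.03 in astrocyte nuclei, but the differences did not pass (edgeR adjusted p = 0.32 and 0.45), and its own call was lost without the second ZT20 library.

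Of 22 tested core clock genes, 1 rose and 5 fell at ZT20, against 1.13% and 1.06% of all genes, with a median of -0.40. Both ZT20 libraries were below both ZT8 libraries for 14 of the 22, against 20.4% of all genes. Per3, a period gene, had 59.0 and 51.7 CPM at ZT20, against 99.7 and 96.0 at ZT8 (log2 -0.81 ± 0.18, edgeR adjusted p = 0.0041). It was found in 49 and 41 nuclei at ZT20 and in 66 and 66 at ZT8. The 3 genes of PAR-domain transcription factors fell as well, Hlf with 70.4 and 65.1 at ZT20, against 110.1 and 116 at ZT8 (log2 -0.74 ± 0.16, edgeR adjusted p = 0.0048), Dbp by log2 -1.19 ± 0.30 (0.015) and Tef by -0.61 ± 0.16 (0.018). Nr1d1, encoding REV-ERBα, had 11.4 and 10.3 at ZT20, against 27.5 and 24.9 at ZT8, and passed narrowly (log2 -1.25 ± 0.36, edgeR adjusted p = 0.0496). Arntl, encoding BMAL1, moved the other way, with 45.8 and 49.6 at ZT20, against 27.5 and 24.0 at ZT8 (log2 0.88 ± 0.25, edgeR adjusted p = 0.048). Each of these 6 calls was lost without at least 1 library, and DESeq2 called none of them. Per2 (log2 -0.71, edgeR adjusted p = 0.062), Ciart (-1.44, 0.090), Per1 (-1.01), Nr1d2 (-0.37) and Cry1 (-0.45) did not pass. Clock had a log2 change of 0.13 and Rora of 0.03. No clock gene differed from mature oligodendrocytes or astrocytes by a tested difference. None of 16 clock output genes passed (median -0.36).

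The Per3 promoter is shown because it holds the D-box, the site that DBP, TEF and HLF bind, at 2 places. TTATGTAA, searched on both strands in 250 bases, was found in 269 of 32851 promoters (0.819%). In Per3 the boxes begin 205 and 158 bases before the start. The E-box CACGTG, bound by CLOCK and BMAL1, was found in 1978 promoters (6.02%) and once in each of the 2 listed windows of Tef, and not in those of Per3, Dbp, Hlf or Arntl. The Per3 window is from RefSeq on GRCm38.p6, chr4:151044666-151044915, minus strand, with the D-boxes in capitals.
Per3: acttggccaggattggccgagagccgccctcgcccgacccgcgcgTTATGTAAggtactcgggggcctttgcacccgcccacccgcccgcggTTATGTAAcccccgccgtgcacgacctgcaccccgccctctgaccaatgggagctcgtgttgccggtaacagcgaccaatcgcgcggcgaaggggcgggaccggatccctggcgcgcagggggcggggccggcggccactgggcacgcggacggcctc

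**Figure D3:**
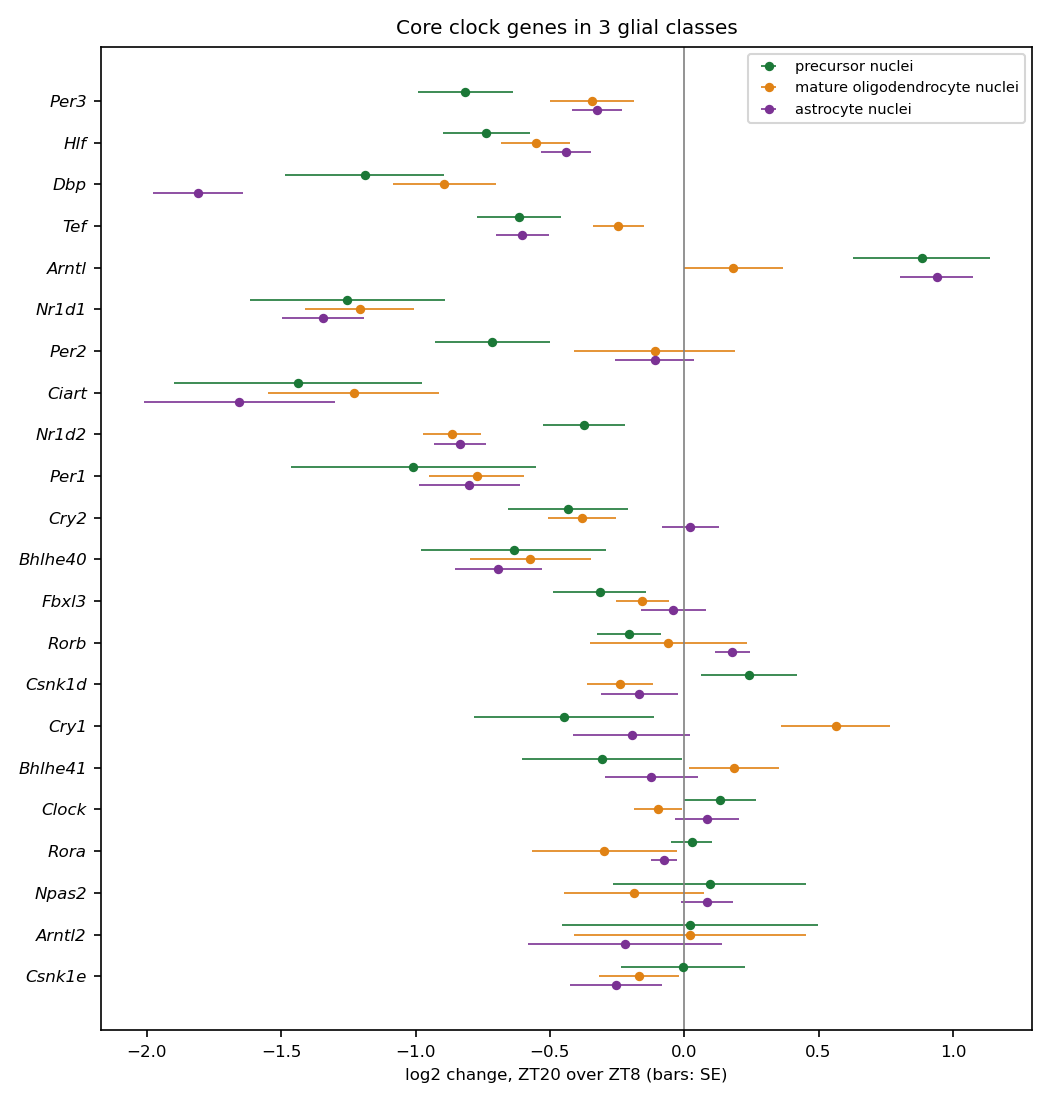
Log2 change of ZT20 over ZT8 with standard error for 22 core clock genes, in order of their p-value in precursor nuclei, in precursor, mature oligodendrocyte and astrocyte nuclei (2 libraries per time). Arntl is above 0 in all 3 classes, at 0.88 in precursor, 0.18 in mature oligodendrocyte and 0.94 in astrocyte nuclei, and Dbp and Nr1d1 are below -0.8 in all 3 classes.

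Genes of myelin and mature oligodendrocytes fell in the precursor nuclei: 8 of 22 were lower, against 1.06% of all genes. Of the 22, 1 was higher, Gjc3, and the list median was -0.58. Mal, a myelin proteolipid gene, had 71.3 and 56.8 at ZT20, against 139 and 117 at ZT8 (log2 -0.98 ± 0.16, edgeR adjusted p = 8.2e-05), and the tight junction gene Cldn11 45.8 and 41.3, against 103 and 85.8 (log2 -1.11 ± 0.19, edgeR adjusted p = 0.00012). Opalin, Trf, Apod, Tspan2 and Sept4 were also lower, at log2 -1.12 to -0.60, while Mbp (log2 -0.60 ± 0.41) did not pass. With stricter limits of 0.3% neuronal and 0.1% oligodendrocyte UMIs, the genes called lower numbered 39 and Mal and Cldn11 were no longer called. In mature oligodendrocyte nuclei, where 4.11% of genes were called higher and 3.33% lower, the log2 changes were -0.15 for Mal and -0.27 for Cldn11. In astrocyte nuclei, which do not make myelin and where 3.10% of genes were called higher and 2.16% lower, they were -0.56 and -0.63. No difference between classes passed for these genes. The 10 markers of mature oligodendrocytes, all with UMIs in every library, summed to 1819 and 1555 CPM in precursors at ZT20 and 3208 and 2338 at ZT8. In all kept nuclei they summed to 1456 and 1406 at ZT20 and 2116 and 2122 at ZT8. Of these markers 4 of the 6 that the rule did not use were called lower; the part of oligodendrocyte RNA in the myelin result was not tested.

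Several of the strongest falls rested on a handful of nuclei. Mgp, a matrix protein gene, had 1 and 0 UMIs at ZT20 and 96 and 60 at ZT8, and 85 of the 96 were in 1 nucleus. Mecom had 5 and 0 UMIs at ZT20 and 74 and 54 at ZT8, 60 of the 74 in 1 nucleus, and Ebf2 2 and 2 at ZT20 and 56 and 33 at ZT8, 43 of the 56 in 1 nucleus. The endothelial phosphatase gene Ptprb had 9 and 5 UMIs at ZT20 and 72 and 34 at ZT8, 68 of the 72 in 1 nucleus. Trpm3, a cation channel gene found in 57.3 to 62.5% of the members of a library, had 521 and 425 CPM at ZT20, against 857 and 1082 at ZT8 (log2 -1.03 ± 0.11, edgeR adjusted p = 1.9e-06), and 562 of 1172 UMIs in the second ZT8 library came from 1 nucleus. Members with 3 or more UMIs of markers of endothelial cells, pericytes, smooth muscle or fibroblasts numbered 3 and 2 at ZT20 and 10 and 10 at ZT8. Without them Trpm3 stood at log2 0.25 (edgeR adjusted p = 0.27), Heg1 at -0.68 (0.60) and Lama2 at -0.68 (0.23), and 118 genes were higher and 74 lower. This alternative was chosen after the data had been seen. The 5 endothelial markers summed to 54.3 and 8.12 CPM in members at ZT20 and 161 and 208 at ZT8, and 2 of 5 tested were lower; the 5 pericyte and smooth muscle markers summed to 13.1 and 28.4 at ZT20 and 60.6 and 161 at ZT8, and 1 of 3 tested was lower. Of 5 fibroblast markers none was tested and Slc47a1 had no UMI. Clmn (log2 -1.22 ± 0.18) and Rnf220 (-0.97 ± 0.14) kept their calls without these nuclei. Of all 18 alternatives, Clmn kept its call in 16 and Rnf220 in 17. Both were found in a larger share of mature oligodendrocyte nuclei than of members. In the first ZT8 library the shares were 75.7%, against 29.3%, for Clmn and 93.2%, against 50.7%, for Rnf220. Both also fell in all other kept nuclei, by log2 -0.55 and -0.73. In mature oligodendrocyte nuclei their log2 changes were -0.22 and -0.0007. The part of oligodendrocyte RNA in the falls of Clmn and Rnf220 was not tested.

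**Figure D4:**
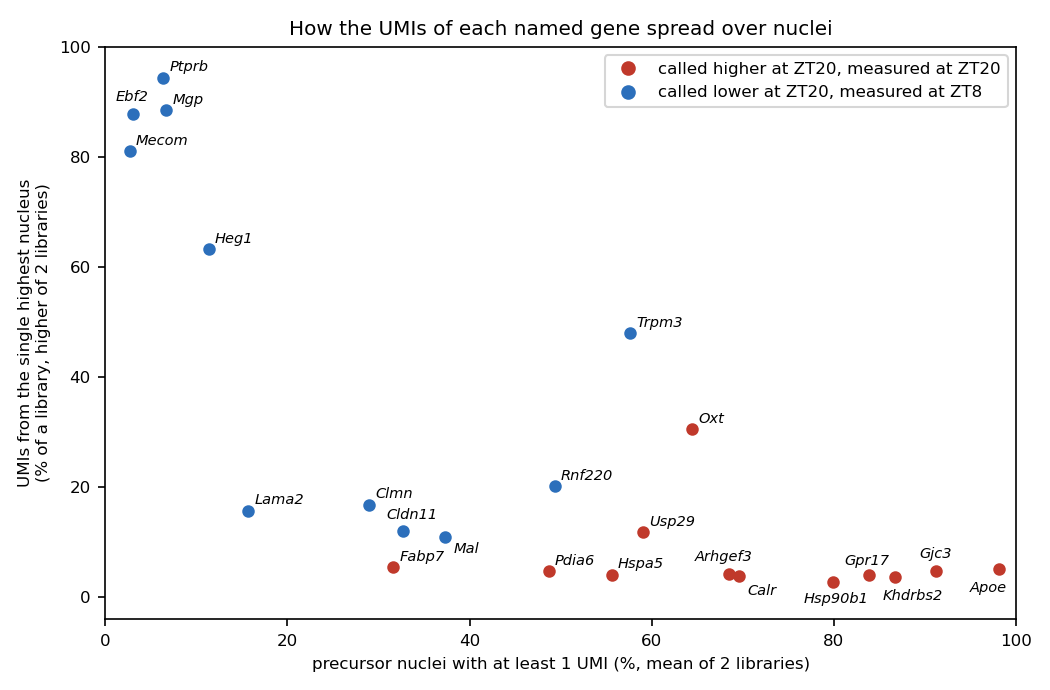
For 12 genes called higher and 11 called lower, the share of precursor nuclei with at least 1 UMI (x axis, mean of 2 libraries) against the share of UMIs from the single highest nucleus (y axis, the higher of 2 libraries), at ZT20 for genes called higher and at ZT8 for genes called lower. Ptprb, Mgp, Ebf2 and Mecom lie at the upper left, with over 80% of UMIs of 1 library in 1 nucleus, while the genes called higher other than Oxt and Usp29 lie under 6%.

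Transcripts of hypothalamic peptide neurons were higher in precursor nuclei at ZT20. Of 9 tested neuropeptide genes 7 rose (Oxt, Pmch, Npy, Sst, Cartpt, Avp and Hcrt), against 1.13% of all genes. The median log2 change of the 9 was 2.6. Oxt, the oxytocin gene, had 184 and 244 CPM at ZT20, against 13.3 and 22.2 at ZT8 (log2 3.57 ± 0.21, edgeR adjusted p = 2.3e-17); 72 of 236 UMIs in the second ZT20 library came from 1 nucleus. Oxt was found in 66.7 and 62.3% of precursor nuclei at ZT20 and in 8.67 and 12.7% at ZT8. In mature oligodendrocyte nuclei, which do not make the peptide, the shares were 60 and 62.7% at ZT20 and 8.36 and 13.1% at ZT8, at median depths of 3448 and 3358 UMIs at ZT20 and 3082 and 3275 at ZT8. Such shares alone do not show expression by precursors, and the source of these UMIs was not tested. The 17 listed peptide genes summed to 448 and 529 CPM in precursors at ZT20 and 88.5 and 125 at ZT8, to 765 and 697 in mature oligodendrocyte nuclei at ZT20 and 116 and 130.4 at ZT8, and to 585 and 593 in all kept nuclei at ZT20 and 104 and 118 at ZT8. Of 7 markers of thalamic neurons, which lie outside the PVN, 2 fell (Synpo2 and Prkch). They summed to 431 and 481 in precursors at ZT20 and 570.4 and 819 at ZT8, and to 2710 and 2639 in all kept nuclei at ZT20 and 3949 and 4014 at ZT8. None of the 7 neuron markers outside the selection rule passed. The part of these transcripts in the other results was not tested.

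Of 34 matrix and proteoglycan genes 1 fell, Lama2, while both ZT20 libraries lay above both ZT8 libraries for 20, against 21.3% of all genes, with a median of 0.19. Of 59 adhesion and guidance genes Slit2 (log2 1.04 ± 0.21, edgeR adjusted p = 0.0086) and Ephb2 (0.76 ± 0.21, 0.030) rose and Cntnap2 fell (-0.43 ± 0.10, 0.017). Cntnap2 turned to 0.28 without the nuclei with vascular markers, and 81 of 172 Slit2 UMIs in the first ZT20 library came from 1 nucleus. Of 16 glucocorticoid response genes 2 fell, Mertk and Zbtb16, against 1.06% of all genes, with a list median of -0.34. The phagocytic receptor gene Mertk had 116 and 98.2 at ZT20, against 175 and 168 at ZT8 (log2 -0.67 ± 0.14, edgeR adjusted p = 0.0020). The transcription factor gene Zbtb16 had 44.0 and 25.8 at ZT20, against 80.7 and 65.5 at ZT8 (log2 -1.04 ± 0.22, edgeR adjusted p = 0.0036). Both lost their calls under thinning, and Zbtb16 and Mertk also without the second ZT20 library. Zbtb16 fell too in mature oligodendrocyte (log2 -0.88) and astrocyte nuclei (-0.76). Of 25 genes of cholesterol and fatty acid synthesis both ZT20 libraries lay below both ZT8 libraries for 15, against 20.4% of all genes, with a median of -0.26. Of 8 astrocyte markers 1 fell, Slc1a3, and both ZT20 libraries lay below both ZT8 libraries for 6, against 20.4% of all genes, with a median of -0.38. The 8 markers summed to 3647 and 3827 CPM in precursors at ZT20 and 3996 and 3956 at ZT8, and their part in the other results was not tested. None of 4 tested microglial markers passed. Of 22 listed immediate early genes only 6 had enough UMIs to be tested, and none of these passed.

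A change that differed between precursors and the other glia was rare in these tests. From mature oligodendrocytes 2 of 12867 genes (0.0155%) differed in their change, Arhgef3 and Ebf2, and 864 had an unadjusted p under 0.05. From astrocytes 51 of 12827 (0.398%) differed. Leaving out any 1 library gave 10 to 22 genes against oligodendrocytes and 27 to 85 against astrocytes. Among the named genes Trpm3, Clmn, Lama2 and the glutamate receptor gene Grm3 differed from astrocytes as well. Grm3 fell in precursors (92.5 and 141 at ZT20, against 197 and 157 at ZT8, log2 -0.62 ± 0.16, edgeR adjusted p = 0.036) and rose in astrocyte nuclei (log2 0.64, edgeR adjusted p = 2.2e-06). Only 17.2 to 34.7% of members per library held a Grm3 UMI. The shares were 91.7 to 92.9% in mature oligodendrocyte and 72.7 to 86.4% in astrocyte nuclei. In the second ZT20 library 42 of 136 member UMIs came from 1 nucleus. The part of RNA from other glia in this fall was not tested.

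**Figure D5:**
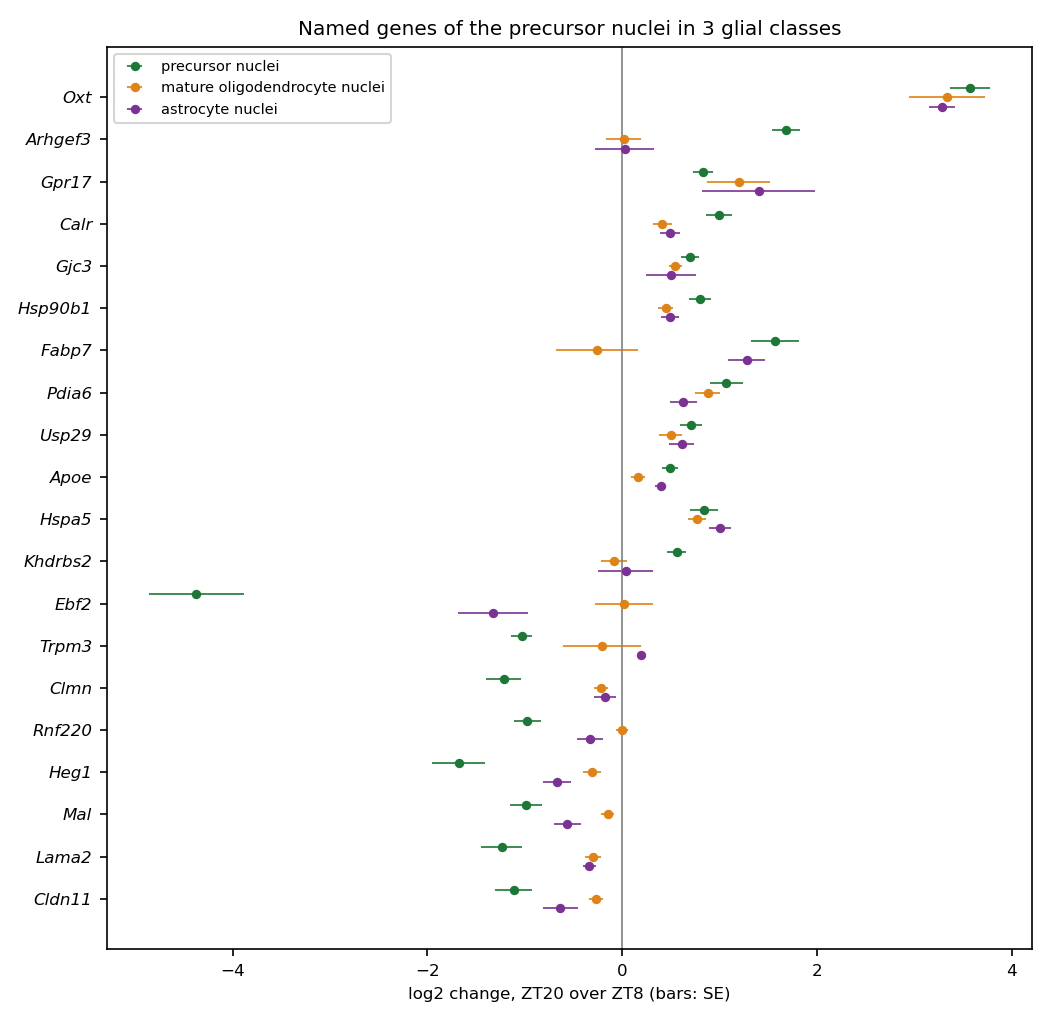
Log2 change of ZT20 over ZT8 with standard error for the genes named by p-value in precursor, mature oligodendrocyte and astrocyte nuclei (2 libraries per time); Mgp, Mecom and Ptprb, whose UMIs at ZT20 are near 0 or whose errors are wide, are left out. Arhgef3 is at 1.68 in precursor nuclei and near 0 in both other classes, whereas the chaperone genes and Oxt are above 0 in all 3.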

How the data were processed

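Nuclei were read in 4 libraries, 2 at ZT20 and 2 at ZT8. The authors deposited raw UMI counts per gene and barcode, made with Cell Ranger 7.0.0 per the file headers; the submitters' processing notes also name STAR 2.6 and the build mm10. Neither the treatment of intronic reads nor the barcode calling is given in the sources used here. Gene coordinates are those of GENCODE M21 (mm10).

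Members, mature oligodendrocytes (at least 10 UMIs of St18, Prr5l, Mag and Mog) and astrocytes (at least 20 UMIs of 6 astrocyte genes), both without Pdgfra and with few UMIs of other classes, were taken by rule, and UMIs were summed per library. edgeR 4.0.16 in R 4.3.3 (filterByExpr, TMM, robust quasi-likelihood test, two-sided, Benjamini-Hochberg over all genes) compared the times, and a library, class and class by time model compared classes. DESeq2 1.42.0 was an alternative. The steps were tested on simulated data. Scrublet in scanpy 1.11.5 marked 0 or 1 nuclei per library at its automatic threshold, so it did not work here, no doublet was removed in the main comparison, and leaving out the highest scores was an alternative.

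Named genes are up to 12 per direction taken by p-value from the called genes whose times do not overlap and whose mean is at least 20 UMIs per library (passing over Gm, Rik and mt- names and genes of the selection rule), all core clock genes, and up to 4 per list; some genes that the rule chose are not reported here. Genes pointed out for levels or spread were chosen after their values were seen. The members and the 32 gene lists were chosen with earlier results of these data known.

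Libraries with the same replicate number were not treated as pairs, since no label ties them by day or litter. Library pairs within a time differed more than sampling noise (chi-square per gene 1.32 at ZT20 and 1.58 at ZT8, where sampling alone gives about 1).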

Additional observations from a re-analysis of the deposited data

Results flagged for a closer look

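The change between times differed between precursor nuclei and another glial class for the following genes, by the class by time term of edgeR. Arhgef3 changed more in precursors, by 1.68 on the log2 scale against mature oligodendrocytes and by 1.69 against astrocytes, and its UMIs were spread over many nuclei. Ebf2 differed by -4.37 against mature oligodendrocytes and by -2.98 against astrocytes, with 43 of 56 UMIs of the first ZT8 library in 1 nucleus. Trpm3 differed by -1.20 against astrocytes, and its change in precursors was 0.25 without the nuclei that held vascular markers. Clmn differed by -1.02, Lama2 by -0.87 and Grm3 by -1.24 against astrocytes.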

How the results depend on the processing

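The main counts were 125 genes higher and 117 lower. DESeq2 gave 10 and 11, equal nuclei thinned to 2000 UMIs gave 21 and 9 (over 6409 genes, with fewer UMIs), and the fit with a replicate block gave 194 and 190. The deviations of equally numbered libraries correlated by 0.03 between times. These deviations are largely sampling noise, so this value cannot show whether the libraries were paired. Stricter neuron and oligodendrocyte limits gave 39 genes lower, and leaving out nuclei with vascular markers gave 74. Without 1 library the counts ranged from 62 to 125 higher and from 59 to 154 lower. The genes whose change differed from oligodendrocytes numbered 53 with no filter on low counts and 10 to 22 without 1 library; those from astrocytes numbered 27 to 85 without 1 library. The difference in the share of precursors was -0.45 points. It was 3.80 points of glial nuclei, 0.071 at 1000 genes and 1% mitochondrial UMIs, 0.055 at 2000 UMIs and 0.137 after thinning, and -0.65 to -0.24 without 1 library. Trpm3 turned to 0.25 without nuclei with vascular markers, and Cntnap2 to 0.039 under the stricter limits, 0.082 after thinning and 0.28 without those nuclei. The cause of these shifts was not tested. With 2 libraries per time, no p of the shares can fall below 0.333.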
